A study of Mus musculus with 16 samples.

Results

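Genes known for their expression in radial glia and astrocytes were followed in RNA of the somatodendritic and axonal compartments of cultured mouse motoneurons. The 10 genes are Fabp7, Slc1a3, Slc1a2, Aldh1l1, Sox9, Aqp4, Hes5, Glul, Apoe and Aldoc, chosen by symbol among the 46320 genes of the count table. All 10 were among the 19964 genes that passed the expression filter and were tested. Motoneurons were enriched from lumbar spinal cord of embryonic day 13 mouse embryos by panning on an antibody to p75NTR, a neurotrophin receptor, and plated in the somatodendritic chamber of microfluidic devices, from which axons grow into a separate axonal chamber. CNTF at 5 ng/ml was present in both chambers, whereas BDNF at 20 ng/ml was added to the axonal chamber alone, the medium held horse serum, and these conditions were shared by all groups. The groups were +/+ somatodendritic, Hnrnpr-/- somatodendritic, +/+ axonal and Hnrnpr-/- axonal, each with 4 libraries (WT and KO in the labels). Hnrnpr-/- motoneurons came from mice on a C57Bl/6 background with a CRISPR/Cas9 deletion in the gene of the RNA-binding protein hnRNP R. The deletion is constitutive, so glia and other cells of such a culture lack hnRNP R as well. The study calls the libraries of a group biological replicates, and the labels do not say which embryos or cultures each came from.

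Radial glia are the dividing progenitors of the embryonic spinal cord, and some of them later turn into astrocytes. Notch receptors, activated by ligands on neighboring cells, keep them in the progenitor state through Hes transcription factors, and Sox9 takes part in the switch from making neurons to making glia. Fabp7 carries fatty acids in radial glia, Slc1a3 (GLAST) and Slc1a2 (GLT-1) take up glutamate, and Glul converts glutamate to glutamine. Aldoc and Aldh1l1 are metabolic enzymes widely used as astrocyte markers, Apoe is secreted as a lipid carrier and Aqp4 is a water channel. None of these genes is exclusive to glia, and several are also expressed in other cell types.

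Promoter sequences were available for 8 of the 10 genes in a RefSeq table on build GRCm38.p6. The 250 bases before each start site were searched for GTGGGAA, letters found in many binding sites of Rbpj, the DNA-binding partner of Notch, on both strands (TTCCCAC on the other). Hes5 and Aldoc held it and are shown, together with Fabp7, which had the largest difference between compartments and no match. Capitals mark the match, and each sequence runs 5′ to 3′ on the plus strand.
Hes5: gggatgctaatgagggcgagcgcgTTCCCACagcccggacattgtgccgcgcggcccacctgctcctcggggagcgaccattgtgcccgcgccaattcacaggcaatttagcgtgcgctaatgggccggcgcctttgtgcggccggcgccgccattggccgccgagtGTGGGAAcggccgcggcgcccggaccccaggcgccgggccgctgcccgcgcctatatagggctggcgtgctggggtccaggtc
Aldoc: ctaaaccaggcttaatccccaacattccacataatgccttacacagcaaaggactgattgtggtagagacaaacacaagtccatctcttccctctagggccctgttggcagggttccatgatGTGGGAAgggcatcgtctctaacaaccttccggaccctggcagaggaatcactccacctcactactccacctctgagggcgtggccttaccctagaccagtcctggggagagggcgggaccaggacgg
Fabp7: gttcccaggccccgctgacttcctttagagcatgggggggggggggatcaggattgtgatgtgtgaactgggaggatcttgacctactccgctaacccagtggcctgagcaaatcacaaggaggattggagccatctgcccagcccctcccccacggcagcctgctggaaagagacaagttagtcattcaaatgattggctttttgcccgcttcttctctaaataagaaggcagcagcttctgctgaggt
In GRCm38.p6 the Hes5 window is chr4:154960673-154960922, the Aldoc window, 1 of 2 for this gene, is chr11:78322823-78323072 and the Fabp7 window is chr10:57784673-57784922. Each matched the build of the count table, GRCm39, exactly and once, at chr4:155045130-155045379, chr11:78213649-78213898 and chr10:57660769-57661018. The Hes5 window lies inside the Hes5 gene as the count table gives it (chr4:155042358-155046829, plus strand), whereas the other windows end at the base before the gene. Hes5 held 2 matches, at 226 and 83 bases before the start site, and Aldoc 1, at 128 bases. Of all 32851 windows in the table, 5.42% held at least 1 match and 0.161% at least 2. A match describes the letters and is not a site, and no match says only that the letters are not in the window.

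Total counts per library ranged from 22024923 to 34864151. Hnrnpr had 4574 to 5913 counts in +/+ and 13 to 27 in Hnrnpr-/- somatodendritic libraries, and 3922 to 15608 in +/+ and 18 to 38 in Hnrnpr-/- axonal libraries. The high value was that of +/+ axonal replicate 2. Levels are given in CPM, a gene's count relative to the total of its library after edgeR's TMM scaling. In CPM, the summed level of 14 neuronal and motoneuron genes was 3424 to 5592 in somatodendritic and 212 to 2717 in axonal libraries. Genes of neurons in general supplied most of it, with Tubb3, Snap25 and Nefl at means of 1348, 1227 and 1226 CPM in +/+ somatodendritic libraries. Motoneuron genes were low there, with mean CPM of 8.05 for Slc18a3, 6.12 for Slc5a7, 5.44 for Ngfr and 5.09 for Isl1. Prph had a mean of 1.31, Chat of 0.90 and Isl2 of 0.07 CPM. Mnx1, which marks motoneurons, had no count in any somatodendritic or +/+ axonal library, which allows up to 3 counts in each.

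Together, the 10 genes took 0.167% to 0.291% of counts in somatodendritic libraries and 0.265% to 0.681% in axonal libraries. Per kilobase of exon, Fabp7 had the highest level, at 558 ± 86.4 CPM per kb (SD, n = 4) in +/+ somatodendritic libraries, where it ranked 37 of 19964 genes. In +/+ axonal libraries it ranked 7, at 2393 ± 980 CPM per kb. Thus Fabp7 supplied 13.7% to 25.0% of the summed CPM of the 10 genes in somatodendritic and 28.8% to 56.7% in axonal libraries. In +/+ somatodendritic libraries, Aldoc followed at 219 ± 58.4 and Apoe at 186 ± 65.8 CPM per kb, with overlapping ranges. Aldh1l1 at 49.0 ± 8.25 and Slc1a3 at 45.7 ± 7.72 CPM per kb also overlapped each other. Glul stood apart from its neighbors at 18.9 ± 0.560 CPM per kb. The lowest levels were those of Aqp4 at 12.98 ± 4.24, Sox9 at 8.58 ± 2.34, Hes5 at 5.32 ± 2.12 and Slc1a2 at 4.90 ± 0.446 CPM per kb, each overlapping the next. In +/+ axons the order differed only where ranges overlapped, with Apoe above Aldoc and Sox9 above Aqp4. Lengths are those of all exons of a gene joined, so levels of genes with long exons that are rarely used are understated.

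**Figure D1:**
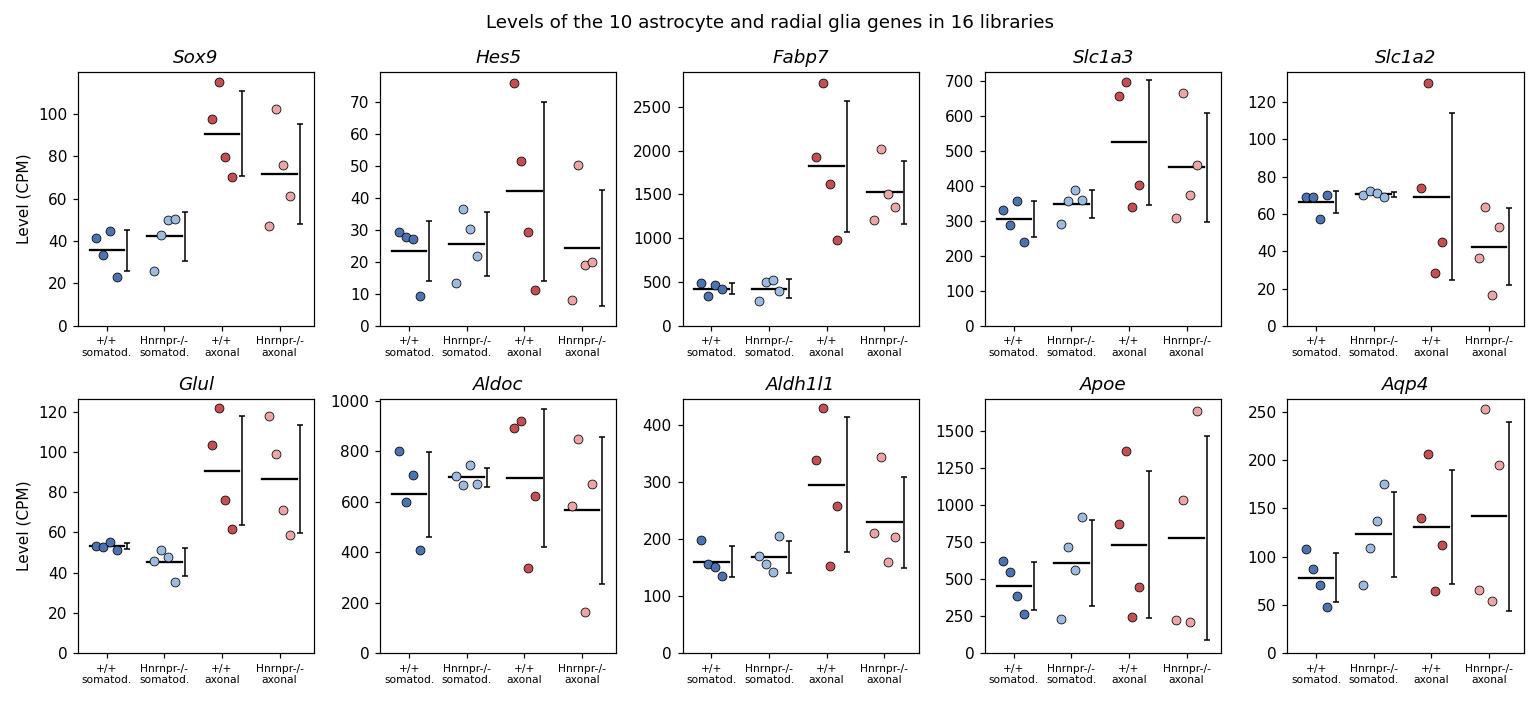
Levels of the 10 genes in CPM (y axes from 0) in each library (points, replicates 1 to 4 from left to right), by group (+/+ and Hnrnpr-/-, somatod. for somatodendritic), with the group mean (line) and SD (bar beside it). Fabp7 is between 974 and 2774 CPM in all axonal libraries and at most 527 CPM in somatodendritic ones, while the axonal values of Apoe run from 213 to 1638 CPM.

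To find out which of these transcripts were present at other levels in axonal than in somatodendritic RNA, the compartments were compared within each genotype by edgeR's quasi-likelihood test with Benjamini-Hochberg adjustment over all genes. In +/+ motoneurons, Fabp7, Sox9, Aldh1l1, Slc1a3 and Glul were higher in axonal libraries, 5 of 10, where 30.1% of all genes tested were called higher. None of the 10 was called lower, compared with 27.4% of all genes. The estimates of all 10 genes were above 0, with a median log2 fold change of 0.78, and the median of all genes was 0.07. The exceptions were Slc1a2, below 0 with the replicate block (-0.11), with the block within genotype (-0.17) and without +/+ axonal replicate 2 (-0.44), and Aldoc, below 0 without +/+ axonal replicate 1 (-0.016) or 2 (-0.031). In Hnrnpr-/- motoneurons, Fabp7, Glul and Sox9 were called higher, 3 of 10, where 27.5% of all genes were. There, none was called lower, compared with 26.8% of all genes, and the median log2 fold change was 0.37. The ranges of the 2 compartments did not overlap, with axonal values higher, for 3 genes in +/+ (Fabp7, Sox9 and Glul), where 24.8% of all genes did so, and for 2 in Hnrnpr-/- motoneurons (Fabp7 and Glul), where 24.1% did. Without +/+ axonal replicate 2, only Fabp7, Sox9 and Glul were called in +/+ motoneurons, 3 of 10. In these bulk samples, fewer cells of a type and less RNA per cell cannot be told apart.

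Fabp7, the fatty acid carrier of radial glia (chr10:57661019-57664546 in GRCm39, as are all gene positions), was at 487, 337, 461 and 417 CPM in +/+ somatodendritic and at 1922, 2774, 1623 and 974 CPM in +/+ axonal replicates 1 to 4. In Hnrnpr-/- replicates it was at 277, 496, 527 and 399 CPM in the somatodendritic and at 1204, 2021, 1501 and 1361 CPM in the axonal compartment. Thus every axonal library was above every somatodendritic one. The log2 fold change was 2.10 ± 0.29 (SE, adjusted p = 7.33e-05) in +/+ and 1.84 ± 0.29 (adjusted p = 0.000198) in Hnrnpr-/- motoneurons, that is, 4.29-fold and 3.58-fold. Among same-numbered libraries of a genotype, the axonal value exceeded the somatodendritic one by 1.22 to 3.04 on the log2 scale.

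Of the transcription factors, Sox9 was higher in axons and Hes5 did not pass the test. Sox9 (chr11:112673036-112678583) was at 41.5, 33.5, 44.5 and 22.8 CPM in +/+ somatodendritic and at 97.5, 115, 79.5 and 70.0 CPM in +/+ axonal replicates. The compartments did not overlap, and the log2 fold change was 1.35 ± 0.28 (adjusted p = 0.00114). In Hnrnpr-/- motoneurons Sox9 was at 25.7, 42.6, 49.8 and 50.5 CPM in somatodendritic and at 47.0, 102, 75.8 and 61.3 CPM in axonal replicates. Here the ranges overlapped, and the log2 fold change was 0.76 ± 0.28 (adjusted p = 0.031). This call was lost without Hnrnpr-/- somatodendritic replicate 1 (adjusted p = 0.0759) or axonal replicate 2 (adjusted p = 0.122). Hes5, the Notch-responsive repressor whose window holds both motif matches, was at 29.2, 27.6, 27.1 and 9.43 CPM in +/+ somatodendritic and at 75.9, 51.7, 29.4 and 11.1 CPM in +/+ axonal replicates. In Hnrnpr-/- motoneurons it was at 13.5, 36.7, 30.4 and 21.9 CPM in somatodendritic and at 8.02, 50.4, 18.9 and 19.9 CPM in axonal replicates. Its log2 fold change was 0.85 (95% interval -0.39 to 2.09) in +/+ and -0.08 (-1.31 to 1.15) in Hnrnpr-/- motoneurons, and both intervals include 0. The sign of the Hnrnpr-/- estimate turned with library totals in place of TMM scaling.

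Of the genes of glutamate uptake and conversion, Glul passed the test in both genotypes, Slc1a3 in +/+ and Slc1a2 in neither. Glul, glutamine synthetase (chr1:153775675-153785469), was at 51.3 to 55.1 CPM in +/+ somatodendritic replicates and at 103, 122, 76.3 and 61.5 CPM in +/+ axonal replicates. The Hnrnpr-/- values were 45.9, 51.4, 47.9 and 35.4 CPM in somatodendritic and 118, 98.9, 71.0 and 58.7 CPM in axonal replicates. In both genotypes the compartments did not overlap, with log2 fold changes of 0.77 ± 0.23 (adjusted p = 0.0106) and 0.94 ± 0.23 (adjusted p = 0.00377). Slc1a3, the glutamate transporter of radial glia (chr15:8663608-8742648, minus strand), was at 330, 289, 358 and 240 CPM in +/+ somatodendritic and at 658, 697, 341 and 403 CPM in +/+ axonal replicates. Replicates 1 and 2 were the high ones and replicate 3 lay within the somatodendritic range. The log2 fold change was 0.78 ± 0.26 (adjusted p = 0.018), and the call was lost without +/+ axonal replicate 1 (adjusted p = 0.0604) or 2 (adjusted p = 0.0609). In Hnrnpr-/- motoneurons Slc1a3 was at 292 to 388 CPM in somatodendritic and at 308 to 668 CPM in axonal libraries, with 0.38 as the log2 fold change (95% interval -0.17 to 0.93). Slc1a2, the main glutamate transporter of mature astrocytes (chr2:102488584-102621129), was the only gene of the 10 whose Hnrnpr-/- axonal libraries all lay below the somatodendritic ones, at 36.4, 63.9, 16.3 and 52.8 CPM compared with 70.2, 72.05, 71.3 and 69.0 CPM. Such a separation downward was seen for 27.3% of all genes. Its log2 fold change was -0.74 ± 0.41, which did not pass the test (adjusted p = 0.138). With the replicate number as a block across both genotypes it was -0.90 and called lower (adjusted p = 0.0382), and with a block within each genotype, a fit added after the data were seen, it was -0.89 and not called (adjusted p = 0.0681). In +/+ motoneurons Slc1a2 was at 57.4 to 70.3 CPM in somatodendritic and at 73.7, 130, 28.1 and 45.1 CPM in axonal replicates, a log2 fold change of 0.06 (95% interval -0.80 to 0.93).

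Of the metabolic markers, Aldh1l1, which oxidizes a folate (chr6:90527751-90576153), was at 199, 157, 152 and 135 CPM in +/+ somatodendritic and at 338, 431, 152 and 259 CPM in +/+ axonal replicates. Replicate 3 again lay within the somatodendritic range. The log2 fold change was 0.88 ± 0.29 (adjusted p = 0.0164) and was not called without +/+ axonal replicate 2 (adjusted p = 0.0643). Its Hnrnpr-/- values were 142 to 206 CPM in somatodendritic and 160 to 344 CPM in axonal libraries, and its log2 fold change was 0.44 (95% interval -0.16 to 1.05). Aldoc, a glycolytic aldolase (chr11:78213899-78218607), was at 801, 599, 706 and 410 CPM in +/+ somatodendritic and at 893, 922, 336 and 622 CPM in +/+ axonal replicates. Its range was wider in axons, and its log2 fold change was 0.14 (-0.70 to 0.98) in +/+ and -0.30 (-1.14 to 0.54) in Hnrnpr-/- motoneurons. In the latter, Aldoc was at 666 to 746 CPM in somatodendritic libraries and at 584, 848, 162 and 669 CPM in axonal replicates.

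For Apoe and Aqp4, as for Hes5 and Aldoc above, the SD among axonal libraries exceeded the difference between the compartment means in both genotypes. Apoe (chr7:19430169-19434326, minus strand) was at 621, 545, 384 and 263 CPM in +/+ somatodendritic and at 872, 1365, 246 and 443 CPM in +/+ axonal replicates. In Hnrnpr-/- motoneurons it was at 228, 714, 563 and 918 CPM in somatodendritic and at 226, 1032, 213 and 1638 CPM in axonal replicates. The log2 fold changes were 0.69 (95% interval -0.69 to 2.08) and 0.36 (-1.02 to 1.74). Aqp4 (chr18:15522451-15544039, minus strand) was at 47.3 to 108 CPM in +/+ somatodendritic and at 64.2 to 206 CPM in +/+ axonal libraries, and at 70.6 to 176 and 54.2 to 253 CPM in those of Hnrnpr-/- motoneurons. Its log2 fold changes were 0.75 (-0.27 to 1.76) and 0.21 (-0.80 to 1.22). Genes annotated over Slc1a3, Slc1a2, Aldh1l1, Aqp4 and Glul could share reads with them, so their values carry this uncertainty. The largest such partner, Gm15756 on the strand opposite to Aldh1l1, had at most 876 counts, compared with at least 2875 for Aldh1l1. The microRNA gene Mir8114 within Glul had at most 294, compared with at least 826 for Glul. Of genes without such a partner, Fabp7 held fractional counts in 11 of 16 libraries, Aldoc in 7, Apoe in 6, Hes5 in 2 and Sox9 in 1. Reads with several alignments were divided, so these values carry an uncertainty as well.

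**Figure D2:**
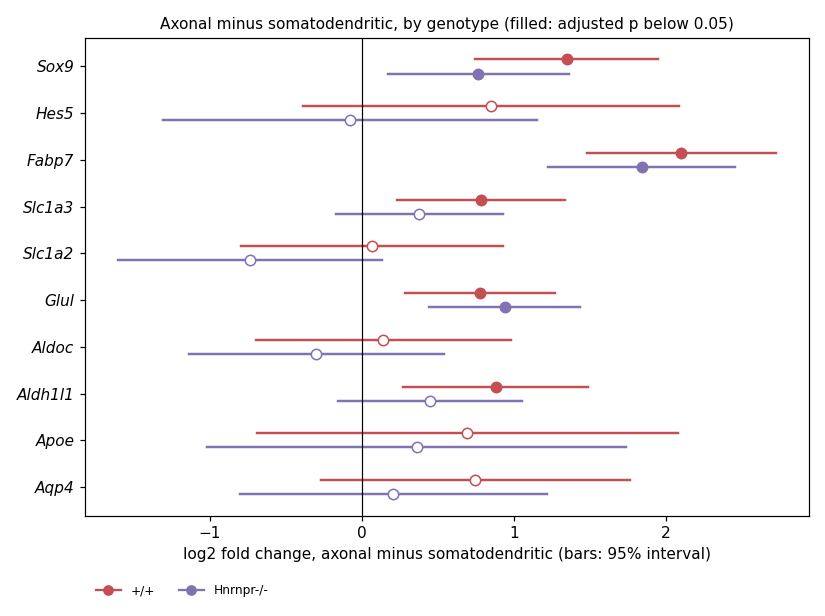
Log2 fold change of each gene, axonal minus somatodendritic (x axis), in +/+ (red) and Hnrnpr-/- (violet) motoneurons, with 95% intervals as bars and filled points where the adjusted p passed 0.05. Fabp7 lies farthest to the right, at 2.10 and 1.84, and the intervals of Hes5, Slc1a2, Aldoc, Apoe and Aqp4 include 0 in both genotypes.

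Other genes of radial glia and astrocytes were also compared. Over all genes tested, 30.1% were called higher and 27.4% lower in +/+ axons, and 27.5% higher and 26.8% lower in Hnrnpr-/- axons. Of 20 genes, 12 were called higher and 0 lower in +/+ axons, and 11 higher and 0 lower in Hnrnpr-/- axons, with median log2 fold changes of 1.77 and 1.20. A count of 1 called lower was found in +/+ without +/+ axonal replicate 2 or 4, and in Hnrnpr-/- motoneurons with the replicate block or without axonal replicate 2. The largest increases were those of Id3 (4.12 ± 0.47 in +/+ and 3.12 ± 0.45 in Hnrnpr-/- motoneurons) and Hes1 (3.64 ± 0.59 and 3.03 ± 0.57), both transcriptional repressors, and the intermediate filament genes Vim (3.57 ± 0.39 and 3.28 ± 0.39) and Nes (2.62 ± 0.40 and 2.49 ± 0.40). Vim was at 87.7 to 234 CPM in somatodendritic and at 1178 to 2739 CPM in axonal libraries of both genotypes. These 4 genes are also expressed in fibroblasts or other dividing cells. Gfap, an intermediate filament of mature astrocytes named after its values were seen, did not pass the test in +/+ (0.97 ± 0.82, adjusted p = 0.327) or Hnrnpr-/- motoneurons (-0.15 ± 0.81, adjusted p = 0.893).

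The counts of the next lists stand beside the same shares of all genes, 30.1% higher and 27.4% lower in +/+ and 27.5% and 26.8% in Hnrnpr-/- axons. Of 13 Notch ligands, receptors and mediators, 5 were called higher and 2 lower in axons of either genotype; without +/+ axonal replicate 4, 8 were higher in +/+. In +/+ motoneurons the 5 were the target Hes1, the co-activator Maml1 (1.42 ± 0.28), the receptors Notch1 (1.46 ± 0.33) and Notch2 (1.20 ± 0.36) and the Hes-related gene Hes6 (1.45 ± 0.39), and the ligand Jag2 (-2.84 ± 0.56) and the receptor Notch3 (-1.05 ± 0.31) were lower. Of 10 other genes of glutamate and glutamine handling, none was called higher, and 5 were lower in +/+ and 4 in Hnrnpr-/- axons. Among the largest in +/+ were the neuronal transporter Slc1a1 (-2.27 ± 0.43), the amino acid transporter Slc1a4 (-1.35 ± 0.21) and the aminotransferase Got1 (-1.05 ± 0.27). Of 9 genes tested that act in ApoE secretion and uptake, 1 was called higher and 4 lower in +/+, and 2 higher and 5 lower in Hnrnpr-/- axons. The count called higher was 2 in +/+ with library totals, only the groups compared or without +/+ axonal replicate 2, and 1 in Hnrnpr-/- motoneurons without somatodendritic replicate 2 or 3 or axonal replicate 3 or 4. Clu, another secreted apolipoprotein, was higher in +/+ axons (2.60 ± 0.57), whereas the receptors Sort1 (-1.80 ± 0.23), Vldlr (-1.41 ± 0.18) and Lrp8 (-1.39 ± 0.24) and the lipid exporter Abcg1 (-1.60 ± 0.34) were lower.

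Among 10 close relatives of the genes, 2 were called higher and 3 lower in +/+ axons, and 2 higher and 2 lower in Hnrnpr-/- axons, near the shares of all genes (30.1% and 27.4% in +/+, 27.5% and 26.8% in Hnrnpr-/- axons). Hes1, which is counted in 3 of the lists, was higher by a log2 fold change of 3.64 in +/+ motoneurons, while its relative Hes5 did not pass. The difference between these relatives was not tested. Aqp1 was higher (3.73 ± 0.98 in +/+, 3.62 ± 0.98 in Hnrnpr-/- motoneurons) from levels of at most 1.33 CPM in somatodendritic libraries. Slc1a1 was lower, as given above, as was Aldh1l2 (-1.87 ± 0.34 in +/+, -1.89 ± 0.34 in Hnrnpr-/- motoneurons). The fatty acid carriers Fabp5 (0.36 ± 0.26 in +/+) and Fabp3 (-0.27 ± 0.38), the widely expressed aldolase Aldoa (0.28 ± 0.16), and Sox8 (1.12 ± 0.66) and Sox10 (0.68 ± 0.98) did not pass in either genotype.

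Of the marker lists of other cells, some held many called genes and others few. In +/+ axons, where 30.1% of all genes were higher and 27.4% lower, 8 of 8 genes of dividing cells and 6 of 12 of fibroblasts, meningeal cells and pericytes were higher, and 9 of 12 neuronal genes tested were lower. In Hnrnpr-/- axons, where 27.5% of all genes were higher and 26.8% lower, the same comparisons gave 8 of 8, 5 of 12 and 9 of 12. The last count was 5 without Hnrnpr-/- somatodendritic replicate 1 or axonal replicate 3. The largest in +/+ were Birc5 (3.59), Cdk1 (3.38), Ccnb1 (2.52) and Ccna2 (2.16) of dividing cells, Mgp (7.53), Twist1 (5.38), Tagln (5.37) and Acta2 (5.17) of fibroblasts and pericytes, and Chat (-5.50), Slc18a3 (-3.88), Syt1 (-3.03) and Ngfr (-2.97) of neurons, as log2 fold changes. Twist1 had a mean of 0.06 CPM in +/+ somatodendritic and Chat of 0.016 CPM in +/+ axonal libraries. These means are below the level of 3 counts, 0.0811 to 0.141 CPM in +/+ libraries, so their fold changes rest on values near 0. Mgp had a mean of 1.02 CPM in +/+ somatodendritic libraries. Summed levels of dividing-cell genes were 175 to 285 CPM in somatodendritic and 231 to 2024 CPM in axonal libraries. The sums of the fibroblast, meningeal and pericyte list were 384 to 1811 and 1895 to 11710 CPM. The sums of neuronal genes were 3424 to 5592 CPM in somatodendritic and 212 to 2717 CPM in axonal libraries. Of 11 oligodendroglial and Schwann cell genes tested, 2 were higher and 0 lower in each genotype, with sums of 276 to 1393 CPM in somatodendritic and 395 to 2175 CPM in axonal libraries. With a block within each genotype, 2 were called lower in each. The count called higher was 1 in +/+ without axonal replicate 1, and in Hnrnpr-/- motoneurons it was 1 without somatodendritic replicate 2 or 3 or axonal replicate 2 and 0 without axonal replicate 4. Of 10 microglia genes none was called in either genotype by edgeR, none had an unadjusted p under 0.05, and at most 1 was called by another setting with all libraries, with sums of 34.1 to 225 CPM in somatodendritic and 32.0 to 652 CPM in axonal libraries. Leaving out a library gave 1 called higher in +/+ (without Hnrnpr-/- axonal replicate 4) and, in Hnrnpr-/- motoneurons, 1 (without somatodendritic replicate 4) or 2 (without axonal replicate 1). Of 7 endothelial genes tested, 2 were higher and 3 lower in each genotype. The higher ones were the VEGF receptor genes Flt1 (log2 fold change 4.70 in +/+, 4.57 in Hnrnpr-/- motoneurons) and Kdr (3.12 and 3.01), with means of 71.2 and 37.0 CPM in +/+ axons, while Cldn5, Tie1 and Cdh5, of which Cdh5 was not tested, were at 0 in all +/+ axonal libraries. The endothelial sums, made up mostly of Flt1 and Kdr in axons, were 9.32 to 45.4 CPM in somatodendritic and 52.2 to 263 CPM in axonal libraries. The count called lower in +/+ was 1 with only the groups compared and 5 without Hnrnpr-/- axonal replicate 2 or 4. In the main fit, 4 of the 7 genes had a +/+ estimate below 0, and the genes that passed the filter in those fits are not reported here. The part of these cells in the levels of Fabp7 and the other genes was not tested. Axonal cDNA was amplified with more PCR cycles than somatodendritic cDNA, and its effect cannot be told apart from that of the compartment.

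**Figure D3:**
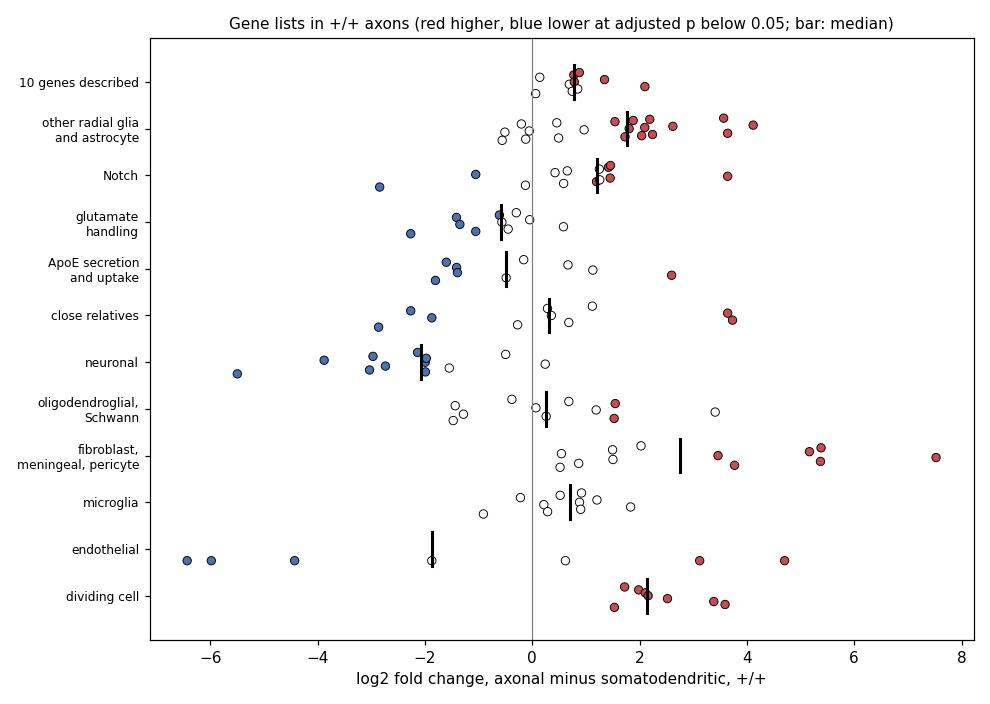
Log2 fold change, axonal minus somatodendritic, in +/+ motoneurons (x axis) for each gene tested (points) of the 10 genes and of 11 lists (rows), red where called higher, blue where called lower and white otherwise, with the median of each list as a black bar. The 10 genes lie between 0.06 and 2.10 (median 0.78), the medians of dividing-cell and neuronal genes are 2.13 and -2.07, and all points of the dividing-cell row are red.

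Some libraries lay above or below their group mean in all or most of the genes, and others were split. In +/+ axons, replicates 1 and 2 were above the group mean for 10 of 10 genes, and replicates 3 and 4 for 0 of 10. In Hnrnpr-/- axons, replicate 2 was above the mean for 10 of 10, replicate 4 for 6, and replicates 1 and 3 for 2 each. In the somatodendritic compartment the counts were 10, 4, 6 and 1 of 10 in +/+ and 3, 7, 9 and 5 in Hnrnpr-/- replicates 1 to 4. The mean deviation over the genes ranged from -0.62 to 0.75 on the log2 scale in axonal libraries and from -0.42 to 0.29 in somatodendritic ones. Sums of some other lists had the order of the 10 genes in a group and others did not. In +/+ somatodendritic replicates 1 to 4 the 10 genes summed to 2739, 2196, 2316 and 1667 CPM, and the oligodendroglial and Schwann cell sum (1081, 479, 627 and 276 CPM) and the microglia sum (80.5, 50.9, 70.7 and 40.1 CPM) had the same order, as had the sums of the 20 further radial glia and astrocyte genes, the Notch genes and the close relatives. In Hnrnpr-/- somatodendritic replicates the sums of the 20 further genes, of microglia genes and of the fibroblast, meningeal and pericyte list followed that of the 10 genes. None of the 11 lists had the whole order of the 10 genes in either axonal group. In Hnrnpr-/- axons the 10 genes (2807, 5480, 2646 and 4720 CPM) and the oligodendroglial and Schwann cell genes (395, 2175, 555 and 2076 CPM) were both high in replicates 2 and 4. The fibroblast, meningeal and pericyte sum was lowest in +/+ axonal replicate 2, at 1895 CPM, and highest in replicate 3, at 11710 CPM. Acta2 alone was at 936 and 9784 CPM in these libraries, so the sum does not describe the list as a whole, and Col1a1, Col1a2, Col3a1, Dcn and Lum of the list were not called in either genotype. Neuronal sums in +/+ axons were 1134, 1660, 314 and 1207 CPM in replicates 1 to 4, and the sums of dividing-cell genes were 1199, 1075, 1548 and 398 CPM.

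Across the 8 axonal libraries, deviations from the group mean correlated over all 45 pairs of the genes with a median Pearson's r of 0.594 (0.0802 to 0.955). In the 8 somatodendritic libraries the median was 0.372 (-0.577 to 0.959). Pairs with r over 0.5 numbered 32 and 20. Slc1a3 had the highest median r with the others in axons, 0.833, and Glul the lowest, 0.380. These correlations are descriptions, since all genes share the library, its depth and its scaling. Of 12360 other genes with at least 5 CPM in somatodendritic libraries, those whose deviations were most like the mean of the 10 genes there were Slc9a3r1 (r = 0.990), Usf1 (0.989), Fam53a (0.984), Bckdha (0.983) and Sox21 (0.980), over 8 libraries. In axons, the same genes had r between -0.0454 and 0.457.

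**Figure D4:**
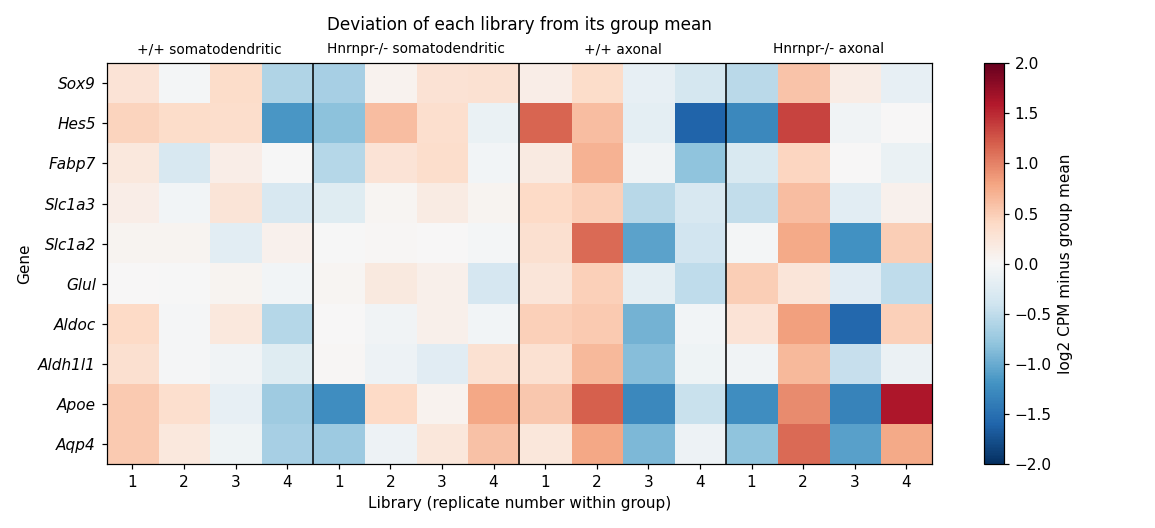
Deviation of each library from its group mean in log2 CPM (color, red above and blue below) for the 10 genes (rows) in 16 libraries (columns, by group and replicate number). Replicates 1 and 2 of +/+ axons and replicate 2 of Hnrnpr-/- axons are red in all rows, and the somatodendritic columns are mostly paler.

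To see whether loss of hnRNP R altered these transcripts, the genotypes were compared within each compartment. No gene of the 10 was called in the somatodendritic compartment by edgeR's quasi-likelihood test, where 0.00501% of all genes, Hnrnpr alone, were, and none had an unadjusted p under 0.05 or ranges that did not overlap, which 1.59% of all genes had. The log2 fold changes, Hnrnpr-/- minus +/+, ran from -0.23 for Glul (95% interval -0.72 to 0.26) to 0.66 for Aqp4 (-0.36 to 1.67). For Fabp7 the difference was near 0, with an interval from -0.60 to 0.59. Aqp4 was at 108, 86.7, 70.4 and 47.3 CPM in +/+ and at 70.6, 109, 137 and 176 CPM in Hnrnpr-/- replicates, which overlapped. In a fit of the somatodendritic libraries alone, Aqp4 had an unadjusted p of 0.0434 and an adjusted p of 0.999.

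In axons, again none of the 10 was called, compared with 0.01% of all genes, none had an unadjusted p under 0.05, and none had ranges that did not overlap, which 0.606% of all genes had. DESeq2 called 0 of 10 in either compartment as well, with no unadjusted p under 0.05. The log2 fold changes ran from -0.79 for Hes5 (95% interval -2.03 to 0.44) to 0.12 for Aqp4 (-0.89 to 1.13). Of the 10, 8 were below 0, as were 9365 of all 19964 genes tested. Intervals were narrowest for Glul (-0.56 to 0.42) and Slc1a3 (-0.76 to 0.34) and widest for Apoe (-1.29 to 1.47), and that of Fabp7 was -0.86 to 0.34. Without Hnrnpr-/- axonal replicate 2, 3 of 10 genes had an unadjusted p under 0.05, as had 2 without +/+ axonal replicate 3, and none passed after adjustment.

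The difference between the genotypes in the axonal shift was below 0 for 9 of 10 genes and above 0 for Glul (0.16). Of all 19964 genes tested, 9771 were below 0. The 10 genes varied together among axonal libraries, so their signs are not independent. None of the 10 was called by edgeR or DESeq2, and 0% of all genes were called by edgeR. None of the 10 had an unadjusted p under 0.05 by either tool. With a block within each genotype, Hes5 had an unadjusted p of 0.0327 (log2 difference -0.94, adjusted p = 1). These estimates share their libraries with the comparisons above. None of the genes of the other lists was called for the genotype in either compartment by edgeR. In the somatodendritic compartment, 2 of 7 endothelial genes had an unadjusted p under 0.05, as had 120 of all 19964 genes tested. In axons, 1 of 7 endothelial and 1 of 12 neuronal genes had one, as had 775 of all genes. In the list of 20 further radial glia and astrocyte genes, no unadjusted p was under 0.05, and the median log2 fold change was 0.31 in the somatodendritic compartment and -0.21 in axons.

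**Figure D5:**
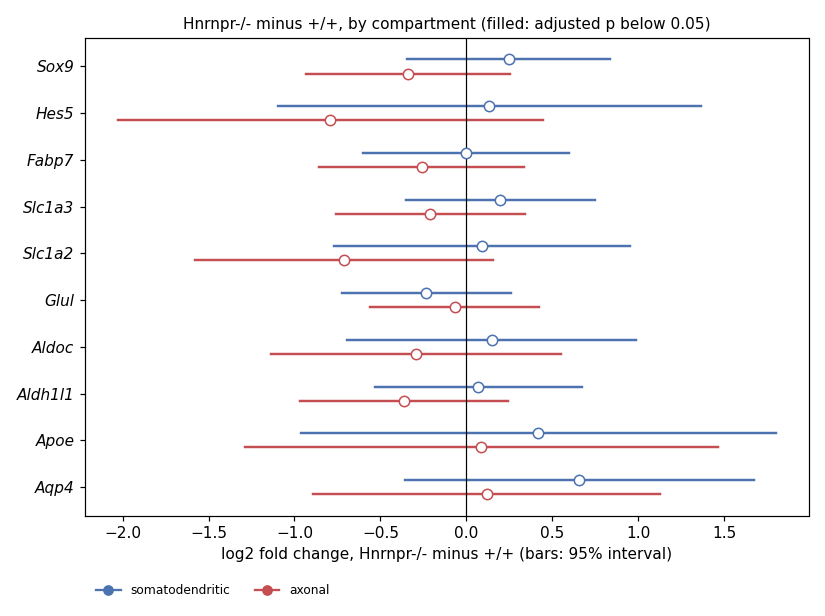
Log2 fold change of each gene, Hnrnpr-/- minus +/+ (x axis), in the somatodendritic (blue) and axonal (red) compartment, with 95% intervals as bars; open points did not pass an adjusted p of 0.05. All intervals include 0, and they are widest for Apoe and Hes5.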

How the data were processed

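RNA-seq data of 16 libraries were used, grouped by sample titles. The authors deposited expected counts per gene, unnormalized and partly fractional. They trimmed reads with Cutadapt, aligned them with STAR 2.7.2b to GRCm39 with the RefSeq annotation and counted exonic reads with featureCounts 1.6.4 in the reverse-strand setting, dividing reads with several alignments or genes. Libraries were made with the SMART-Seq v4 kit, which does not mark strand, so antisense partners cannot be told apart.

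Counts were rounded. In R 4.3.3 with edgeR 4.0.16 and limma 3.58.1, an expression filter by group (filterByExpr) left 19964 of 46320 genes. Libraries were scaled by TMM factors, 0.8988 to 1.095, and 1 quasi-likelihood model with 4 group means was fitted. Two-sided p values were adjusted by Benjamini-Hochberg over these genes, and 0.05 was the threshold. Standard errors were computed as the absolute log2 fold change over the square root of F. Totals of 22024923 to 34864151 counts put 0 counts at a limit of 3 counts, for counting error only. The model was also run on simulated, unpaired libraries with changes between genotypes, which did not cover the comparisons of compartments. DESeq2 1.42.0 and other alternatives are described in the closing section.

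Deviations of same-numbered libraries from their group means correlated across genes at 0.105 to 0.241 between compartments of +/+ motoneurons. Between those of Hnrnpr-/- motoneurons the correlations were 0.175 to 0.508. Numbers were therefore taken to pair the compartments, which comes from the data, since the labels give only the numbers. The main model holds 4 group means and no pairing, so its tests of the compartments are unpaired. Only the fits with a block use the numbers.

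The 10 genes, the lists and the tests were chosen with earlier results of these data known. Of lists, at most 4 called genes with the largest log2 fold change are named per comparison, close relatives are named, and the 5 genes most like the 10 genes are named from somatodendritic libraries. Some genes of the lists are counted but not reported here by name.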

Additional observations from a re-analysis of the deposited data

Results flagged for a closer look

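In 40 groups of 4 libraries, 1 for each gene and group, 2 held a library far from the others by Dixon's test, and chance flags about 1 in 20 groups. Slc1a2 was at 57.4 CPM in +/+ somatodendritic replicate 3, below the nearest of the others at 68.8 CPM. Hes5 was at 9.43 CPM in +/+ somatodendritic replicate 4, below the nearest of the others at 27.1 CPM.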

How the results depend on the processing

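Results were recomputed with library totals, RLE size factors, no filter, a minimum of 10 counts, the groups compared only, DESeq2 with default settings or with betaPrior, the replicate number as a block, and each library left out. A block within each genotype, and all settings for the lists, were added after the data were seen. Of 1220 repeated estimates of the 10 genes, 1167 kept their direction and side of the threshold, 5 lost and 1 gained a call, and 47 changed sign, 0 of them where either value was called. Library totals moved the median log2 fold change of all genes by 0.15 in +/+ and 0.118 in Hnrnpr-/- motoneurons between compartments. The count of genes called in +/+ axons was 5 under each alternative with all libraries and 3 to 5 with 1 left out. In Hnrnpr-/- axons it was 3, or 4 with the replicate block and 3 with the block within genotype, and 2 to 3 with 1 library left out; for the genotypes it was 0 throughout. Deviations of same-numbered libraries of the 2 genotypes correlated over 0.1 in 2 of 4 pairs in each compartment. These were replicates 2 and 3, at 0.171 and 0.359 in somatodendritic and at 0.317 and 0.677 in axonal libraries. The other pairs were at -0.0458 to 0.0261. Whether the numbers pair the genotypes is thus not settled, and with the replicate block the count for the genotypes stayed at 0.

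Sign changes with all libraries kept were, as log2 values, Slc1a2 between +/+ compartments at -0.11 with the replicate block and -0.17 with the block within genotype, Aqp4 between Hnrnpr-/- compartments at -0.0155 with the block within genotype, Hes5 there at 0.061 with library totals, and Apoe between genotypes in axons at -0.0886 with the replicate block. Fabp7 between genotypes in the somatodendritic compartment was at 0.0302 with library totals, 0.00295 without a filter, 0.0068 with at least 10 counts and 0.0064 with only the groups compared. With 1 library left out, estimates changed sign within these ranges. Between +/+ compartments, Slc1a2 ran from -0.44 to 0.37 and Aldoc from -0.031 to 0.42. Between Hnrnpr-/- compartments, Aqp4 ran from -0.24 to 0.52, Hes5 from -0.72 to 0.21, Apoe from -0.31 to 0.72 and Aldoc from -0.57 to 0.0485. Between genotypes in the somatodendritic compartment, Fabp7 ran from -0.12 to 0.16, Aldh1l1 from -0.0412 to 0.20 and Hes5 from -0.12 to 0.35. In axons, Fabp7 ran from -0.46 to 0.0141, Aqp4 from -0.32 to 0.43, Glul from -0.25 to 0.11, Apoe from -0.57 to 0.58 and Aldoc from -0.56 to 0.0241. For the difference in the axonal shift, Fabp7 ran from -0.47 to 0.0167, Glul from -0.0192 to 0.34 and Apoe from -0.99 to 0.16. The causes were not tested. List counts that moved by over 1.5 times are given with the lists, except that DESeq2 with default settings called 1 neuronal gene higher in Hnrnpr-/- axons.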
